A study of Danio rerio with 18 samples.

Results

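The genes described here encode proteins of the nucleolus that make ribosomes. They were chosen by name, as the genes whose single symbol in the array's probe table begins with nop, utp, rrp, noc or nol and a digit or with polr1, or is 1 of 22 further symbols such as fbl, ncl, dkc1 and mybbp1a. This gave 62 of the 19238 genes with a probe set that lists a single symbol, each read from the brightest such probe set. Spellings that differ only in letter case were taken as 1 gene, but a probe set that lists both spellings, as for nop14, was not used. Of the 22 further symbols 20 were found, and gnl2 and imp3 share their probe sets with another gene and were not counted as members. RNA came from the lateral line primordium, a migrating group of cells that founds the sensory organs of the trunk, in zebrafish (Danio rerio) embryos younger than 3 days. It was measured on 18 arrays in 3 groups of 6. All embryos carried the reporters cldnb:lynGFP and cxcr4b:nls-tdTomato and received 10 µM RU486 and 0.1% DMSO. The control group had nothing further, although its label reads untreated. The SU5402 group also received 1 µM SU5402, an inhibitor of the FGF receptor. The FGF overexpression group carried cxcr4b:LexPR and lexOP:Fgf3-GFP in addition, a driver that RU486 activates and the Fgf3 transgene it switches on. The effect of Fgf3 and that of carrying these transgenes cannot be told apart, and the cxcr4b promoter restricts the driver to the cells that use it. Replicates are labelled biological, but nothing says from how many embryos each came.

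Ribosomes are built in the nucleolus, where RNA polymerase I transcribes the precursor of the large ribosomal RNAs. Small nucleolar ribonucleoproteins (snoRNPs) guide chemical changes to that precursor, box C/D particles adding methyl groups and box H/ACA particles converting uridine to pseudouridine. A large complex around the U3 snoRNP, the small subunit processome, folds and cuts the small subunit part, and another set of factors assembles the large subunit. Much of this machinery is controlled together in growing cells, with MYC proteins among its known activators in animals.

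Array medians of the deposited values lay between 5.89 and 5.99 (log2 signal). These values had been processed by RMA, which as usually run evens out overall brightness between arrays. The medians therefore cannot show whether the amount of RNA differed between groups. The primordium markers cldnb, eya1 and cxcr4b had control means of 11.90, 11.81 and 10.65. None of these 3 passed the test under SU5402, but most of the list changed. Of 11 primordium markers on the list 4 were higher under SU5402, dlx4b (2.04, from a control mean of 6.77), lef1 (1.52), dlx3b (0.86) and prox1a (0.62). Another 4 were lower, ackr3b (-1.72), atoh1a (-1.42), fgfr1a (-1.26) and six4b (-0.395). These opposite changes left the list mean at 9.61 to 9.86 against 9.46 to 9.93 in control. Other cell types were present as well. The mean level of 24 skeletal muscle markers on the control arrays was 10.55 to 11.34 and that of 14 skin and periderm markers 9.71 to 10.40. Under SU5402 the skin and periderm mean was 9.36 to 9.87, with 6 of 14 markers lower and 1 higher than in control. The endothelium mean was 5.65 to 6.01 against 6.25 to 6.78 in control, with 5 of 9 markers lower. Of 9 neuron and glia markers 2, elavl4 and syt1a, were lower, and the mean was 6.48 to 7.14 against 6.63 to 7.33. The erythroid mean was 7.59 to 8.69 against 6.98 to 8.13, with 3 of 8 markers higher. No skeletal muscle marker passed the test under either treatment. The muscle mean was 10.35 to 11.31 under SU5402 and 10.57 to 11.25 under FGF overexpression, where all 24 changes were below 0. Of the primordium markers, lef1 (-1.39) and ackr3b (-0.84) fell under FGF overexpression and prox1a (0.33) rose, with a list mean of 9.55 to 9.73. None of the 8 erythroid markers passed there (mean 7.45 to 7.93). Under FGF overexpression none of the 14 skin and periderm markers passed the test (3 at an unadjusted p under 0.05) and the mean was 10.05 to 10.29. At that unadjusted level there were 3718 of all 19238 genes. Of the 9 endothelium markers egfl7 (1.25) and kdr (0.80) were higher than in control and kdrl (-0.92) was lower, and the mean was 6.29 to 6.82. The neuron and glia markers sox10 (0.66) and snap25b (0.50) were higher, and the mean of that list was 6.89 to 7.26. What these shifts contribute to the changes described next was not tested. In such bulk samples fewer cells of a type and less RNA per cell cannot be told apart.

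Nucleolar genes were higher with the FGF receptor inhibited. Of the 62 members, 36 rose under SU5402 and none fell, whereas 6.57% of all 19238 genes rose and 8.13% fell. The test was limma's moderated test, two-sided, with Benjamini-Hochberg adjustment over all 75212 probe sets and a threshold of 0.05. Only nol4lb was lower at an unadjusted p under 0.05 (1 member), against 48 members that were higher at that level. Counting both directions, 5291 of all 19238 genes met it. The changes were small. The rises that passed ran from 1.23-fold for rrp1 to 1.88-fold for mybbp1a, and the median log2 change over all 62 members was 0.37, against 0.01 over all genes. The change was above 0 for 59 members, against 52.1% of all genes. For 34 members all 6 SU5402 arrays lay above all 6 control arrays, a pattern that 4.78% of all genes had. Members were brighter than all genes (median control mean 7.65 against 6.85) and varied less within groups (median SD 0.15 against 0.19). The shares of all genes were not matched for either.

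The largest change was that of mybbp1a (probe set 13192597), which encodes a nucleolar protein that binds MYB and takes part in ribosomal RNA synthesis and processing. Its level on the control arrays was lowest at 8.66, with a median of 8.88 and a highest value of 8.97. On the SU5402 arrays it was 9.61, 9.74 and 9.90, and on the FGF overexpression arrays 7.91, 8.13 and 8.42, in the same order. The 3 groups did not overlap. The rise under SU5402 had a log2 change of 0.91 (SE 0.09, adjusted p = 8.71e-07, n = 6 per group). Under FGF overexpression mybbp1a fell 1.63-fold (SE 0.09 on the log2 scale, adjusted p = 5.14e-05). Between the treated groups its level differed 3.07-fold (log2 change of FGF overexpression against SU5402 -1.62, adjusted p = 1.53e-10).

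**Figure D1:**
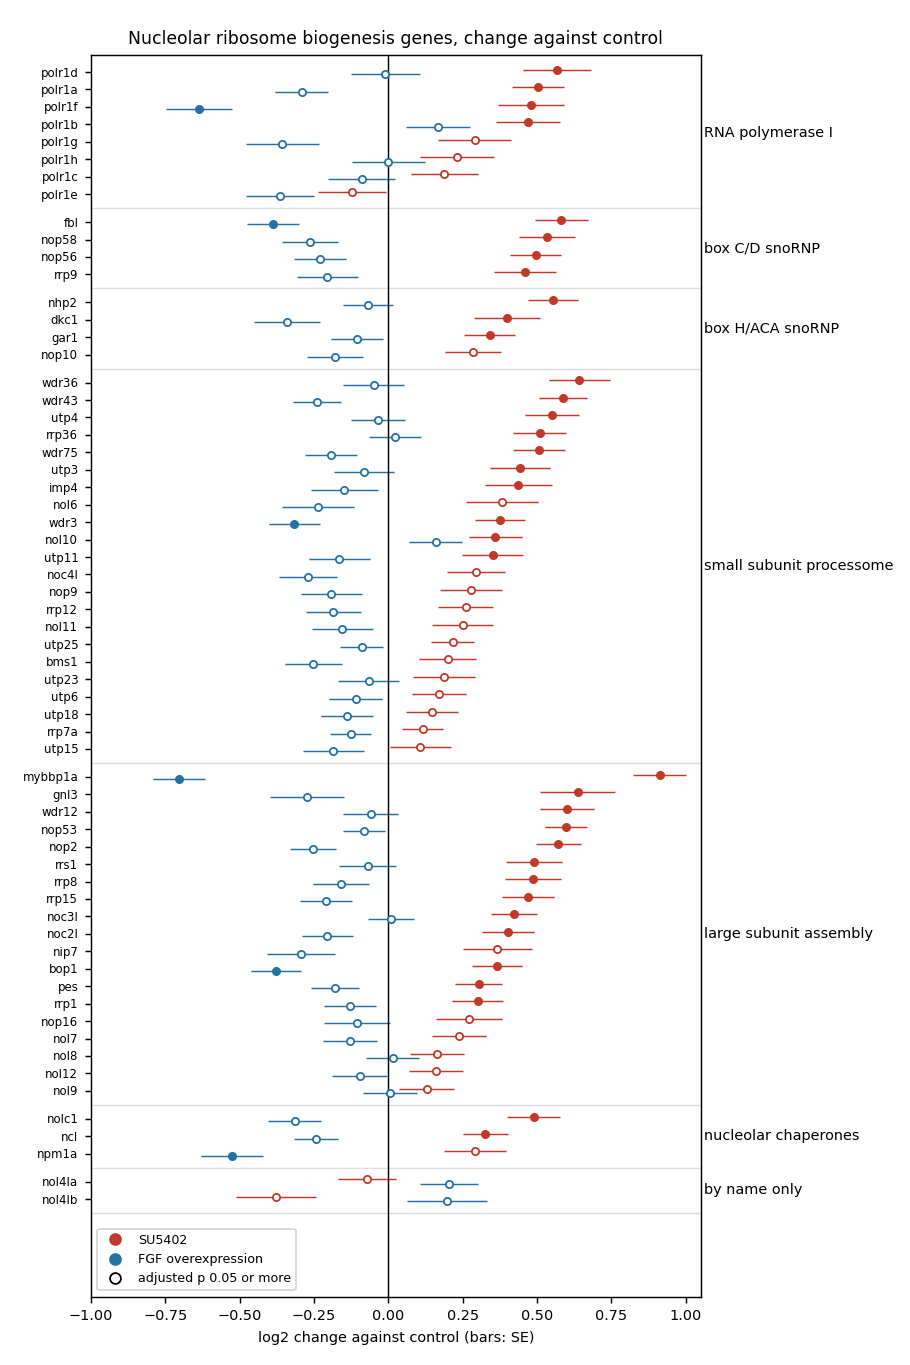
Log2 change against control of all 62 genes, grouped by role, under SU5402 (red) and FGF overexpression (blue), with SE bars and open points where the adjusted p was 0.05 or more. Red points lie to the right of 0 for 59 genes, and blue points lie to the left of 0 for 53. Both changes are taken against the same 6 control arrays.

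Of the 8 members for subunits of RNA polymerase I, 4 rose under SU5402. They leave out the subunits shared by RNA polymerases I, II and III, whose genes are named polr2. The gene polr1a encodes the largest subunit, which forms the catalytic centre with that of polr1b. It had control values of 7.46, 7.56 and 7.75 (lowest, median, highest) and SU5402 values of 7.88, 8.06 and 8.25. All SU5402 arrays lay above all control arrays (log2 change 0.50, SE 0.09, adjusted p = 0.000766). The subunit gene polr1b also rose (0.47, adjusted p = 0.00700), from a control mean of 5.39 that lies below the median of 5.92 over all probe sets, where these files hold no detection call. So do polr1c and polr1h. The gene polr1d, whose product is shared with RNA polymerase III, rose by a log2 change of 0.57 (SE 0.12, adjusted p = 0.00291), but its groups overlapped, with control values up to 7.48 and SU5402 values from 7.38.

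The gene polr1f encodes the stalk subunit that contacts the initiation factor RRN3. It was 7.08, 7.15 and 7.24 on control arrays, 7.45, 7.56 and 8.04 on SU5402 arrays and 6.27, 6.44 and 6.84 on FGF overexpression arrays. As for mybbp1a, the 3 groups did not overlap. It rose under SU5402 (log2 change 0.48, SE 0.11, adjusted p = 0.00768) and fell under FGF overexpression (-0.64, SE 0.11, adjusted p = 0.00151). The members that did not pass under SU5402 were polr1g (0.29), polr1h (0.23), polr1c (0.19), also shared with RNA polymerase III, and polr1e (-0.12). The gene polr1e had a negative change in both comparisons, with -0.37 under FGF overexpression (adjusted p = 0.0871).

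All 4 genes of the box C/D particle class rose under SU5402. The gene fbl encodes fibrillarin, the methyltransferase of these particles. It had control values of 9.83, 9.98 and 10.09, SU5402 values of 10.36, 10.57 and 10.73 and FGF overexpression values of 9.37, 9.58 and 9.84. The SU5402 arrays stood apart from control, and the highest FGF overexpression array, 9.84, reached just above the lowest control array. The rise had a log2 change of 0.58 (SE 0.09, adjusted p = 0.000173), and under FGF overexpression fbl fell 1.31-fold (adjusted p = 0.0144). The core protein genes nop58 and nop56, whose products hold the guide RNA in place, rose by 0.53 and 0.50 (SE 0.09 for each). The U3 particle gene rrp9 rose by 0.46 (SE 0.10).

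Of the 4 box H/ACA genes 3 rose. The RNA-binding protein gene nhp2 rose most, 1.47-fold, with 10.13, 10.37 and 10.46 on control arrays and 10.66, 10.92 and 11.10 on SU5402 arrays (log2 change 0.55, SE 0.08, adjusted p = 0.000180). The gene dkc1, for the pseudouridine synthase dyskerin, rose by 0.40 (SE 0.11, adjusted p = 0.0288). The gene gar1, for a glycine- and arginine-rich protein of the same particles, rose by 0.34 (SE 0.09, adjusted p = 0.0156). The call for dkc1 was lost without the arrays numbered 6 (adjusted p = 0.0628) and in 5 of 18 fits that left out 1 array, those without replicates 5 or 6 of control or replicates 1, 2 or 3 of SU5402 (adjusted p = 0.0532 to 0.0667). The small protein gene nop10 did not pass (0.29, adjusted p = 0.0663), with control values up to 10.91 and SU5402 values from 10.85.

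Of 22 genes classed here under the small subunit processome 10 rose, and all 22 log2 changes were above 0, with a median of 0.32. Genes of the t-UTP (UtpA) module, which joins the precursor during transcription, were among both the larger and the smaller changes. The gene wdr43 had control values of 8.45, 8.54 and 8.63 and SU5402 values of 8.94, 9.14 and 9.33, with no overlap (log2 change 0.59, SE 0.08, adjusted p = 5.96e-05). Of the same module utp4 (0.55) and wdr75 (0.51) rose as well, whereas nol11 (0.25) and utp15 (0.11) did not pass. In the UtpB module wdr36 rose by 0.64, the most in this class (SE 0.10, adjusted p = 0.000289), and wdr3 by 0.38 (SE 0.08, adjusted p = 0.00678), while utp6 (0.17) and utp18 (0.15) did not pass. The UtpC genes nol6 (0.38, adjusted p = 0.0545) and rrp7a (0.12) did not pass either. Further rises were those of rrp36 (0.51), utp3 (0.44), imp4 of the U3-associated complex (0.44), nol10 (0.36) and utp11 (0.35). The call for utp11 was lost in 8 of 18 fits that left out 1 array, namely those without replicates 1, 2, 3 or 4 of control or replicates 1, 2, 3 or 5 of SU5402 (adjusted p = 0.0532 to 0.0821). The members left were noc4l (0.29), nop9 (0.28), rrp12 (0.26), utp25 (0.22), the GTPase gene bms1 (0.20) and utp23 (0.19), none of which passed. The control mean of nop9, 5.85, also lies below the median of 5.92 over all probe sets.

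Of 19 genes classed here under large subunit assembly 13 rose under SU5402, with a class median of 0.40. After mybbp1a came gnl3, which encodes the nucleolar GTPase nucleostemin (0.64, SE 0.13, adjusted p = 0.00214). The gene nop53, for an assembly factor that in yeast brings the exosome to the precursor, was 10.21, 10.26 and 10.41 on control arrays and 10.76, 10.90 and 11.07 on SU5402 arrays. That is a 1.51-fold rise with little spread within groups (log2 change 0.60, SE 0.07, adjusted p = 1.08e-05). The methyltransferase gene nop2 had control values of 7.65, 7.71 and 7.80 and SU5402 values of 8.15, 8.31 and 8.39 (log2 change 0.57, SE 0.08, adjusted p = 4.37e-05), again with no overlap.

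The 3 genes of the PeBoW complex, which is needed to process the large subunit RNAs, all rose. Differences between their changes were not tested. The log2 change was 0.60 for wdr12 (SE 0.09, adjusted p = 0.000182), 0.36 for bop1 (SE 0.08, adjusted p = 0.00811) and 0.30 for pes (SE 0.08, adjusted p = 0.0195). The call for pes was lost once array medians were made equal (adjusted p = 0.0565) and without the arrays numbered 6 (adjusted p = 0.0741). Further rises were those of rrs1, which helps to load the 5S particle (0.49), the RNA methyltransferase gene rrp8 (0.49), rrp15 (0.47), noc3l (0.42), noc2l (0.40) and rrp1 (0.30). The call for rrp1 was also lost in 8 of 18 fits that left out 1 array, those without replicates 1, 2, 3 or 4 of control or replicates 1, 2, 3 or 6 of SU5402 (adjusted p = 0.0521 to 0.0856). The members that did not pass were nip7 (0.37, adjusted p = 0.0518), nop16 (0.27), nol7 (0.24), nol8 (0.16), nol12 (0.16) and nol9, an RNA kinase gene (0.13). The placing of nol7 in this class is uncertain, since its product has also been assigned to the small subunit processome.

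Among the abundant nucleolar proteins, nolc1, a chaperone of snoRNPs, rose 1.40-fold (log2 change 0.49, SE 0.09, adjusted p = 0.00115) and ncl, nucleolin, 1.25-fold (0.33, SE 0.08, adjusted p = 0.00818). The nucleophosmin gene npm1a did not pass under SU5402 (0.29, SE 0.10, adjusted p = 0.0965), except with dim probe sets left out (adjusted p = 0.0493). Its control values were 9.12, 9.33 and 9.51, its SU5402 values 9.46, 9.59 and 9.82 and its FGF overexpression values 8.41, 8.84 and 9.10. SU5402 and control arrays overlapped, whereas FGF overexpression and control arrays did not.

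A pair of genes enters by name alone, since nol4la and nol4lb have no settled role in ribosome assembly. Both had negative changes under SU5402 (-0.07 and -0.38), and neither passed (adjusted p = 0.750 and 0.0939). Without replicate 4 of SU5402, nol4lb fell and was the single member to do so. The other 60 members had 59 positive changes under SU5402, the exception being polr1e.

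**Figure D2:**
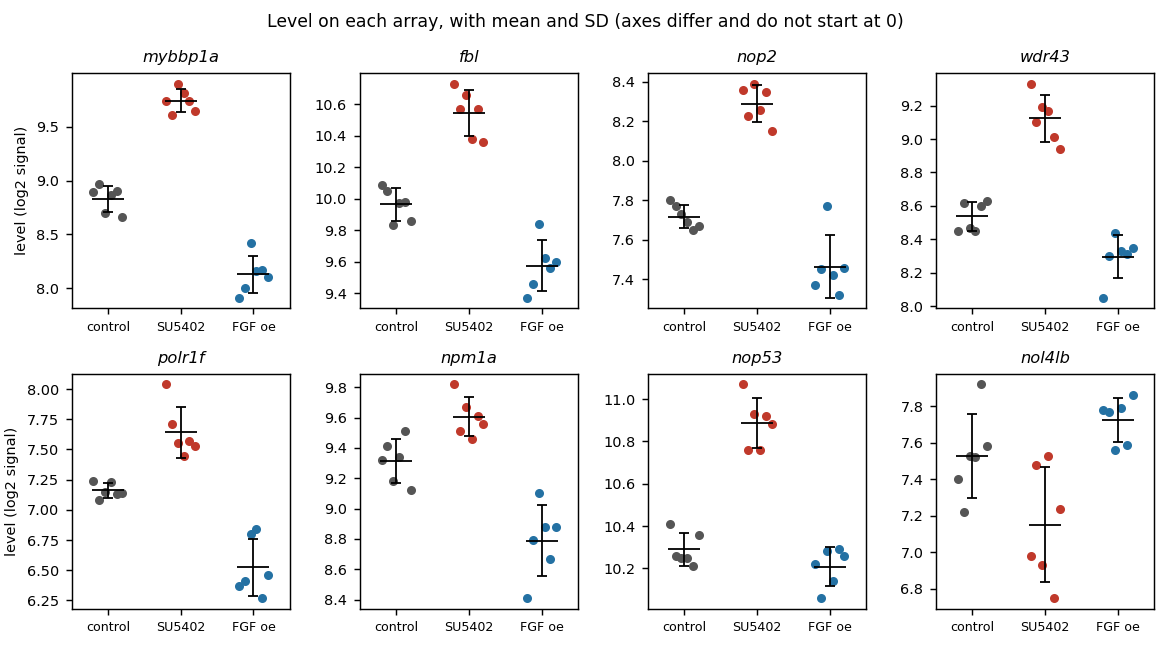
Level (log2 signal) of 8 genes on each array, with the group mean and SD, n = 6 per group. The groups of mybbp1a, polr1f and wdr43 do not overlap, nop53 is separate under SU5402 alone, and nol4lb has its highest values in control and FGF overexpression.

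With Fgf3 overexpressed, the nucleolar genes that passed the test were lower. Of the 62 members 6 fell and none rose, whereas 2.48% of all genes fell and 3.41% rose. At an unadjusted p under 0.05, 24 members were lower and 0 were higher. That level was met by 3718 of all 19238 genes, counting both directions. The median log2 change was -0.16, against -0.01 over all genes. The change was below 0 for 53 members, against 51.6% of all genes, and 5 members had FGF overexpression arrays all below the control arrays, a pattern that 2.1% of all genes had. Of these 5, wdr43 did not pass (-0.24, adjusted p = 0.122). The falls were those of mybbp1a, polr1f, npm1a (-0.53, SE 0.10, adjusted p = 0.00506), fbl (-0.39, SE 0.09, adjusted p = 0.0144), bop1 (-0.38, SE 0.08, adjusted p = 0.0124) and wdr3 (-0.32, SE 0.08, adjusted p = 0.0417). Of these, bop1 was 7.93, 7.98 and 8.18 on control arrays and 7.52, 7.65 and 7.85 on FGF overexpression arrays, with no overlap. The call for wdr3 was lost when only the 2 compared groups were fitted (adjusted p = 0.0647),, and those of bop1 and wdr3 when the arrays numbered 6 were left out (adjusted p = 0.0600 and 0.0748). The call for wdr3 was lost in 10 of 18 fits that left out 1 array, those without any of replicates 2 to 6 of control, replicates 1, 2, 4 or 5 of FGF overexpression or replicate 6 of SU5402 (adjusted p = 0.0508 to 0.100).

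One array bore on that count. Without replicate 3 of FGF overexpression 12 members fell in place of 6, with dkc1, ncl, noc4l, nolc1, nop2 and nop58 added. The share of all genes that fell in that fit is not given here. On replicate 3 nop2 was 7.77, and on the other 5 FGF overexpression arrays it lay between 7.32 and 7.46, below the lowest control value of 7.65. Averaged over the 62 members, replicate 3 lay 0.03 above the control mean (log2), and the other 5 FGF overexpression arrays lay 0.13 to 0.31 below it.

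Several members that rose under SU5402 had changes near 0 under FGF overexpression. For wdr12 the log2 change under FGF overexpression was -0.06 (SE 0.09, adjusted p = 0.811), for nhp2 -0.07 (SE 0.08, adjusted p = 0.759), for utp4 -0.03, for noc3l 0.01 and for nop53 -0.08 (SE 0.07, adjusted p = 0.636). Whether a gene's change under SU5402 was larger than its opposite change under FGF overexpression was tested as the sum of the 2 effects, a test added after the changes were seen. The sum was above 0 for 53 of 62 members and passed for nop53 alone (sum of log2 changes 0.52, adjusted p = 0.0249). It passed upward for 1.95% of all genes. At an unadjusted p under 0.05 it was 14 members, counting sums of either sign, and the share of all genes at that level was not computed. For members other than nop53 a difference in size is therefore not shown.

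Set directly against each other, the treated groups differed at most members. Of 62 members 50 were lower under FGF overexpression than under SU5402 and 1, nol4lb, was higher, against 11.9% and 12.5% of all genes. The median log2 difference was -0.56, against -0.02 over all genes. Fold differences of the 50 ran from 1.18 for rrp7a to 3.07 for mybbp1a. After mybbp1a, polr1f differed 2.17-fold (log2 difference -1.12, SE 0.11, adjusted p = 5.17e-07) and fbl 1.96-fold (-0.97, SE 0.09, adjusted p = 1.77e-07). In 43 members all FGF overexpression arrays lay below all SU5402 arrays, a pattern that 7.79% of all genes had. In 1 member, nol4lb, they all lay above, as in 1691 of the 19238 genes. Members that did not pass were nol10, nol12, nol4la, nol8, nol9, polr1b, polr1c, polr1e, polr1h, utp15 and utp23. With the replicate number as a block, nol12 (adjusted p = 0.0445) and polr1b (adjusted p = 0.0410) passed and utp6 did not (adjusted p = 0.0703). This comparison uses the same treated arrays as the 2 comparisons with control, and so is not separate evidence. The order of mean levels was SU5402, control, FGF overexpression from high to low in 52 members, and in 25.5% of all genes.

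The shift was seen array by array. Relative to the control mean of each gene, the average over the 62 members was 0.25 to 0.52 (log2) on the SU5402 arrays, -0.31 to 0.03 on the FGF overexpression arrays and -0.04 to 0.06 on the control arrays. On each SU5402 array 53 to 61 members lay above their control mean. The average over all genes, in values already processed by RMA, stayed within -0.04 and 0.03 on all 18 arrays. Replicate 1 was the highest SU5402 array (0.52), the lowest FGF overexpression array (-0.31) and the highest control array (0.06). The skin and periderm mean was 9.36 on SU5402 replicate 1, the lowest of all arrays, and 9.87 on SU5402 replicate 6, whose member average was the lowest of that group (0.25). Control replicate 1 also had the lowest skin and periderm mean of its group (9.71). Other arrays went the other way. FGF overexpression replicate 1, with the lowest member average, had the lowest skin and periderm mean of its group (10.05). SU5402 replicate 3 had a member average of 0.43 and a skin and periderm mean of 9.74. The part of skin and periderm content in the spread was not tested.

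**Figure D3:**
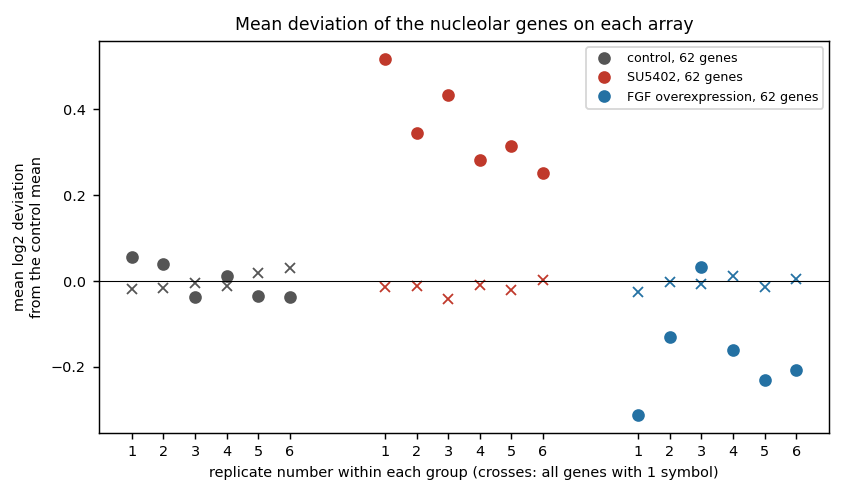
Mean deviation of the 62 nucleolar genes (dots) and of all genes with 1 symbol (crosses) from the control mean, in log2 units, on each of 18 arrays by replicate number. The SU5402 dots lie between 0.25 and 0.52, above all control dots, and replicate 3 of FGF overexpression, at 0.03, lies among them.

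Members also varied together within groups. After the group means were taken out, the mean correlation between pairs of members over the 18 arrays was 0.35, and 0.39 without nol4la and nol4lb, against 0.01 between pairs of all genes. The arrays, and with them any difference in cell content, are shared by all pairs, so these values describe and do not test. The genes nop58 (0.93), nop16 (0.89) and nolc1 (0.88) followed the average of the other members most closely, and nol4lb ran against it (-0.46). Across the 62 genes the Pearson correlation between control level and SU5402 change was 0.23, and that between control level and FGF overexpression change was -0.35. Genes are not independent replicates here.

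A separate probe set was present for 4 members. Under SU5402 the second probe sets had log2 changes of 0.61 for nhp2, 0.43 for nop56, 0.38 for wdr3 and 0.45 for wdr75 (adjusted p = 0.000109, 0.000965, 0.00288 and 0.00783). Under FGF overexpression the second probe set of wdr3 passed (-0.30, adjusted p = 0.0360), as did the one counted here. The second probe set of nop56 passed too (-0.28, adjusted p = 0.0446), whereas the one counted here did not (-0.23, adjusted p = 0.173). The second probe set of wdr75 had a change of -0.01 under FGF overexpression (adjusted p = 0.986), against -0.19 for the one counted here (adjusted p = 0.276), and a difference between FGF overexpression and SU5402 of -0.46 against -0.70.

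Of 86 measured genes for ribosome assembly factors outside the name rule 48 rose under SU5402, 1 fell and the rest did not pass, with a median of 0.32. The shares of all genes were 6.57% higher and 8.13% lower. Examples were mdn1, the large ATPase that remodels the precursor of the large subunit (0.52, SE 0.06, adjusted p = 4.28e-06), gtpbp4, a nucleolar GTPase (0.72, adjusted p = 5.76e-06), pwp2h of the UtpB module (0.66) and rsl1d1 (0.60). The fall was that of wdr18 (-0.37, adjusted p = 0.00438), part of a complex that acts on late large subunit precursors. Under FGF overexpression 5 of the 86 fell, namely bysl, nsa2, pa2g4a, pdcd11 and tsr1, and none rose, with 26 of 86 at an unadjusted p under 0.05 in either direction. Of all genes 2.48% fell and 3.41% rose, and 3718 of 19238 had an unadjusted p under 0.05 in either direction.

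Among 8 genes for factors that start or end RNA polymerase I transcription, 3 rose under SU5402. These were rrn3, whose product recruits the polymerase (0.64, SE 0.09, adjusted p = 0.000101), and taf1b (0.48) and taf1a (0.43), for 2 subunits of the promoter selectivity factor. Another subunit gene of that factor, taf1c, had changes of -0.21 under SU5402 (adjusted p = 0.119) and 0.19 under FGF overexpression (adjusted p = 0.232), and was higher under FGF overexpression than under SU5402 by 0.39 (adjusted p = 0.00134). The upstream binding factor gene ubtf did not pass (0.22, adjusted p = 0.0654), and none of the 8 passed under FGF overexpression (2 at an unadjusted p under 0.05). Of 10 RNA polymerase III subunit genes 4 rose, polr3e (0.41), polr3a (0.38), polr3b (0.28) and polr3c (0.25). RNA polymerase II transcribes messenger RNA genes, and its list here is not separate from RNA polymerase I. The products of polr2ea, polr2eb, polr2f, polr2h, polr2k and polr2l on it are shared by RNA polymerases I, II and III. Of the 13 genes on that list none passed under SU5402 (4 at an unadjusted p under 0.05), with a median of 0.16. At that unadjusted level stood 5291 of all 19238 genes under SU5402 and 3718 under FGF overexpression, in either direction. Of 16 genes of the exosome and RNA surveillance, which trim and degrade ribosomal RNA precursors, 4 rose, exosc1 (0.57), exosc8 (0.33), exosc3 (0.30) and the exonuclease gene xrn2 (0.19). Differences between these lists were not tested.

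**Figure D4:**
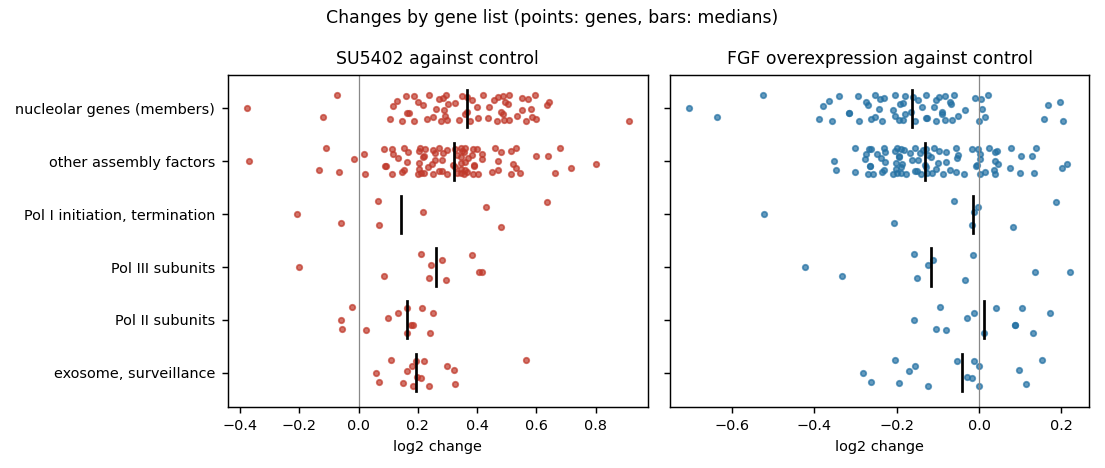
Log2 change against control of single genes (points) and list medians (bars) for the 62 nucleolar genes and 5 related lists, under SU5402 (left) and FGF overexpression (right). Under SU5402 the medians are 0.37 for the nucleolar genes, 0.32 for other assembly factors and 0.16 for RNA polymerase II subunits. The RNA polymerase II list includes subunits shared with RNA polymerases I and III.

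Of 12 measured genes of the MYC and MAX network, 3 rose and 2 fell under SU5402. The MYC genes myca and mycn rose by 1.44 (SE 0.12, adjusted p = 1.18e-07) and 1.22 (SE 0.12, adjusted p = 1.37e-06) and fell under FGF overexpression by -0.58 (adjusted p = 0.00663) and -0.70 (adjusted p = 0.00158). Their partner gene max rose under SU5402 (0.29, adjusted p = 0.0124). The genes of 2 MAX-binding antagonists of MYC, mxd3 (-0.76, adjusted p = 2.00e-05) and mxi1 (-0.33, adjusted p = 0.00531), fell under SU5402, and mxi1 rose under FGF overexpression (0.86, SE 0.07, adjusted p = 4.10e-07). The genes mych (0.46, adjusted p = 0.0510) and mycb (0.37, adjusted p = 0.0935) did not pass under SU5402.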

How the data were processed

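RNA was purified with the RNeasy Plus Mini kit, and biotin label was added with an Ambion WT Expression Kit, per the labels' protocols. No source used here says how the cells were isolated. What the authors deposited is a log2 signal for each probe set and array. Per the submitters' processing notes it was made by RMA in Affymetrix Power Tools. The version of that software and the array's annotation were not given in the sources used here. Signals ran from 1.20 to 13.88 and were tested without a filter. The number of arrays limits the precision. Of 75212 probe sets, 20806 had 1 symbol, 855 several and 53551 none.

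All comparisons came from a single fit with limma 3.58.1 in R 4.3.3, which gave each group 1 mean over 18 arrays and was tested on simulated data. Errors are SE of a log2 change unless named SD. Of 245 symbols on the lists of related genes and markers, 220 could be matched, 4 by an older name. The members and lists were chosen with earlier results of these data known. Named in full were up to 3 members of each role class by the F test over the 3 groups and 12 genes fixed by name.

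Arrays with the same replicate number deviated together from their group means, with a correlation above 0 in all 18 pairs. It was 0.12 to 0.37 in the 6 pairs of SU5402 and FGF overexpression. It was above 0.1 in 4 of 6 pairs of control and SU5402 and 5 of 6 of control and FGF overexpression. The range was 0.06 to 0.44 for control and SU5402, which held the highest value, and 0.01 to 0.32 for control and FGF overexpression. Among arrays of the other groups, 13 of 18 arrays correlated best with an array of their own number. This sign of pairing comes from the data and not from the labels. The main fit used no pairing in any comparison, so all its adjusted p values are unpaired. The replicate number entered only as a block among the alternatives.

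Alternatives were equal array medians, only the compared groups, the replicate number as a block, array weights, a trended and robust variance, a filter on dim probe sets, the mean of a gene's probe sets, identical probe sets kept once, no nol4la or nol4lb, and arrays left out. Sequences were not analysed here.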

Additional observations from a re-analysis of the deposited data

Results flagged for a closer look

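Single arrays stood apart from the other 5 of their group, by Dixon's ratio at the 95% level, in 14 of 189 sets of 6 values examined. Chance alone gives about 5% of such sets. In control, replicate 5 was apart for dkc1 (8.64 against 8.82 to 8.90), gnl3 (8.18 against 7.81 to 7.88), nip7 (7.06 against 7.35 to 7.50) and utp3 (7.28, the highest of its group). Control replicate 3 was apart for rrp1 (7.39) and control replicate 4 for rrp7a (7.86). In SU5402, replicate 4 was low for rrs1 (6.36 against 6.68 to 6.84) and replicate 1 was high for wdr75 (8.45). In FGF overexpression, replicate 3 was high for gar1 (8.25), nhp2 (10.43), noc3l (7.37) and nop2 (7.77), and replicate 1 was low for nop9 (5.45) and wdr43 (8.05).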

How the results depend on the processing

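The count of members that rose under SU5402 was 36 as reported and 30 to 42 under the alternatives, with the median log2 change between 0.33 and 0.40. None fell, except that 1 did without replicate 4 of SU5402, and leaving out 1 array at a time gave 0 to 1. Under FGF overexpression 6 fell as reported. With dim probe sets left out, which kept 58 members and adjusted fewer tests, the number was 11, and 42 rose under SU5402. With 1 array left out at a time 5 to 12 fell under FGF overexpression, the 12 coming without replicate 3 of FGF overexpression. Shares of all genes under the alternatives are not given here. Against SU5402, 1 member was higher under FGF overexpression as reported. It was 2 with equal array medians, with dim probe sets left out and with the replicate block taken as random, 0 without nol4la and nol4lb, and 1 to 2 with 1 array left out at a time. The log2 change of polr1d under FGF overexpression, -0.01 and not past the threshold, changed sign to 0.0038 with array weights, and ran from -0.0523 to 0.0743 with 1 array left out at a time, above 0 in 4 of those fits. The cause was not tested. With the replicate number as a fixed replicate block 38 members rose under SU5402 and 6 fell under FGF overexpression. Against control, nip7, nol6 and nop10 were added and rrp1 (adjusted p = 0.0634) lost under SU5402, and polr1e was added and wdr3 (adjusted p = 0.0531) lost under FGF overexpression. Not all pairs of equally numbered arrays with control had correlated deviations above 0.1 (0.01 to 0.44), although 13 of 18 arrays correlated best with an array of their own number, a sign from the data that the labels do not give. Of 36 calls under SU5402, 33 were made in all 18 fits that left out 1 array, as were 5 of 6 under FGF overexpression.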

Other observations

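A further 3 probe sets carry a symbol covered by the name rule together with a second entry, and were not counted as members. For imp3 and gnl2 the second entry is another gene, so the signal cannot be given to 1 gene. For nop14 the entries differ only in letter case. Under SU5402 the probe set of imp3 and sec22ba had a log2 change of 0.35 (SE 0.08, adjusted p = 0.00805). That of gnl2 and dnali1 had 0.23 (SE 0.16, adjusted p = 0.485), and that of nop14, listed in 2 spellings, 0.07 (SE 0.09, adjusted p = 0.732). Under FGF overexpression the changes were -0.21, -0.30 and -0.20, and none passed (adjusted p = 0.205, 0.394 and 0.269).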
